A study of Homo sapiens with 6 samples.

Results

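The gene group described here comprises regulators of the anaphase-promoting complex and the mitotic kinases that work beside it: FBXO5, CDC20, FZR1, UBE2C, UBE2S, PTTG1, ESPL1, AURKA, PLK1 and TPX2. Members were found as the rows of the normalized count table whose gene symbol equals one of these names, which gave all 10, 1 row each, of 35268 named genes. All 10 passed the filter on low values, a mean of at least 10 normalized counts over the 6 libraries, as did 13930 genes in all. mRNA was sequenced from Rh30, an established human cell line of fusion-positive rhabdomyosarcoma (FP-RMS), a muscle-like childhood tumor driven by the PAX3-FOXO1 oncofusion. Cells received either 1 µM of the drug, a small-molecule inhibitor of ETS family transcription factors dissolved in DMSO, or the DMSO vehicle alone, and both groups were collected at 24 hours. Each group had 3 libraries, Rh30 is the only cell line in the series, and the labels do not say whether replicates were separate cultures, so p-values measure only the spread between these libraries. The comparison asks how drug treatment changed the transcripts of these genes.

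The anaphase-promoting complex (APC/C) is a ubiquitin ligase that ends mitosis by marking proteins for destruction. CDC20 activates it at the metaphase to anaphase transition, FZR1 (also called CDH1) keeps it active in late mitosis and in G1, and FBXO5 (EMI1) inhibits it from the start of S phase. UBE2C begins ubiquitin chains on its substrates and UBE2S extends them. A central substrate is PTTG1 (securin), whose loss frees ESPL1 (separase) to cut the cohesin rings that hold sister chromatids together. AURKA and PLK1 are kinases that drive centrosome maturation, mitotic entry and spindle assembly, and TPX2 brings AURKA to spindle microtubules and activates it. AURKA, PLK1, TPX2 and CDC20 are themselves destroyed through the APC/C as cells leave mitosis. Transcripts of most of these genes peak in G2 and mitosis in cycling cells, from promoters that often carry CCAAT boxes, bound by NF-Y, and a cell cycle genes homology region (CHR), bound by MuvB complexes.

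Promoters are shown for the 4 genes found to hold both elements: FBXO5, CDC20, ESPL1 and PLK1. Over all 6 libraries only FBXO5 of these was called lower with the drug, and CDC20, ESPL1 and PLK1 were not called. The difference in response between the 4 genes was not tested. The sequences are from RefSeq on GRCh38.p14, run 5′ to 3′ along the gene from 250 bases before to 50 bases after the annotated start, and capitals mark each match to the motifs searched, on either strand.
FBXO5 (second of its 2 annotated starts, chr6:152982992-152983291, minus strand): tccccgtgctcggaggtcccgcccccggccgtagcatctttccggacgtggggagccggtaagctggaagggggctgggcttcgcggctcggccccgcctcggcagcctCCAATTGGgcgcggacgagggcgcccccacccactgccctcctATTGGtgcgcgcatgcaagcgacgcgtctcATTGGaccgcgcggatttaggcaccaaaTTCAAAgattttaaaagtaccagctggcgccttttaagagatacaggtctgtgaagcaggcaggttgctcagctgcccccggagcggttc
CDC20 (chr1:43358731-43359030, plus strand): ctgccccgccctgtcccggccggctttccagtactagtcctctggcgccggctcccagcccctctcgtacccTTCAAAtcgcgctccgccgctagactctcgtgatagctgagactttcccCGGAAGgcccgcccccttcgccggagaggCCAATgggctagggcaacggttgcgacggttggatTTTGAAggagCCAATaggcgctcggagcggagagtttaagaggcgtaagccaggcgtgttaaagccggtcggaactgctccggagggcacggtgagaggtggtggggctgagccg
ESPL1 (chr12:53268049-53268348, plus strand): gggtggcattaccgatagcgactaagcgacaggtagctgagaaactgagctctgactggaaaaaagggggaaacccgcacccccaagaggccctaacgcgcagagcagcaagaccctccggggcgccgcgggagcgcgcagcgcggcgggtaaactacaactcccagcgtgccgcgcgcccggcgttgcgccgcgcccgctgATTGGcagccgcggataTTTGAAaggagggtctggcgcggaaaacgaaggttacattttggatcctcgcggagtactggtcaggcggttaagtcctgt
PLK1 (chr16:23678639-23678938, plus strand): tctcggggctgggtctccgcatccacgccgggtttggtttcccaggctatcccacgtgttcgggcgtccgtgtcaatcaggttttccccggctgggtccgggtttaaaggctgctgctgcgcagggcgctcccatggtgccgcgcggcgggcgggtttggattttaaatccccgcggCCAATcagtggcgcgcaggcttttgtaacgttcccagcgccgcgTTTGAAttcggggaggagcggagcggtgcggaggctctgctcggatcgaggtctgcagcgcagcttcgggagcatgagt

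The motifs searched were TTTGAA for the CHR, the letters CCAAT themselves, the ETS core CGGAAG, and for E2F any one of TTTGGCGC or TTTCCCGC or TTTGCCGC or TTTCGCGC. No match to one motif overlapped a match to another motif, and in FBXO5 and PTTG1 a CCAAT on one strand shares 2 bases with one on the other. RefSeq windows were in hand for 7 of the 10 genes, 10 windows in all, and were missing for UBE2C, AURKA and TPX2. Of these 7 genes, 5 had a CHR match (FBXO5, CDC20, FZR1, ESPL1 and PLK1) and 6 had a CCAAT match (all but FZR1). By window, 5 of 10 had a CHR match and 7 of 10 a CCAAT match, whereas 15.2% and 34.6% of the 35116 promoter windows in the table had one. The CHR match began at -31 in ESPL1, at -29 in PLK1 and at -40 in FBXO5, counted from the start, and CDC20 had one at -65 and another at -178. The match of FZR1 lay far upstream, at -226. An ETS core was present in 4 of the 10 windows, the first of FBXO5, that of CDC20 and both of PTTG1, against 19.5% of all windows, and none had an E2F match (3.31% of all windows). The windows of PTTG1 overlap, so its ETS site and its CCAAT sites are counted in both. FBXO5, which fell most, and CDC20, which was not called changed, both had CHR, CCAAT and ETS matches, those of FBXO5 spread over its 2 starts. A match in these letters does not show that a factor is bound.

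Before turning to single genes, the libraries were compared. They held from 16724650 to 24677433 reads on named genes, and each gene of the group had from 1177 to 10124 reads in a library. DMSO replicate 1 stood apart: its mean correlation with the other 5 libraries across the genes tested was 0.989, where no other library was under 0.992, and it had the most reads on mitochondrial genes (6.05% against 4.74% to 5.03%). The muscle markers MYOD1 and MYOG were strong, with means of 37118 and 13810 normalized counts in the DMSO libraries. Of 10 identity markers of Rh30, which include PAX3 and FOXO1 beside muscle genes, 9 passed the filter, MYF6 being the exception. The 10 markers of other cell types summed to 160.1 to 174.9 normalized counts in the DMSO libraries and 159.7 to 220.2 in the drug-treated libraries, and PTPRC, which defines blood cells, was at 0 in the DMSO libraries and at a mean of 0.334 in the drug-treated libraries.

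**Figure D1:**
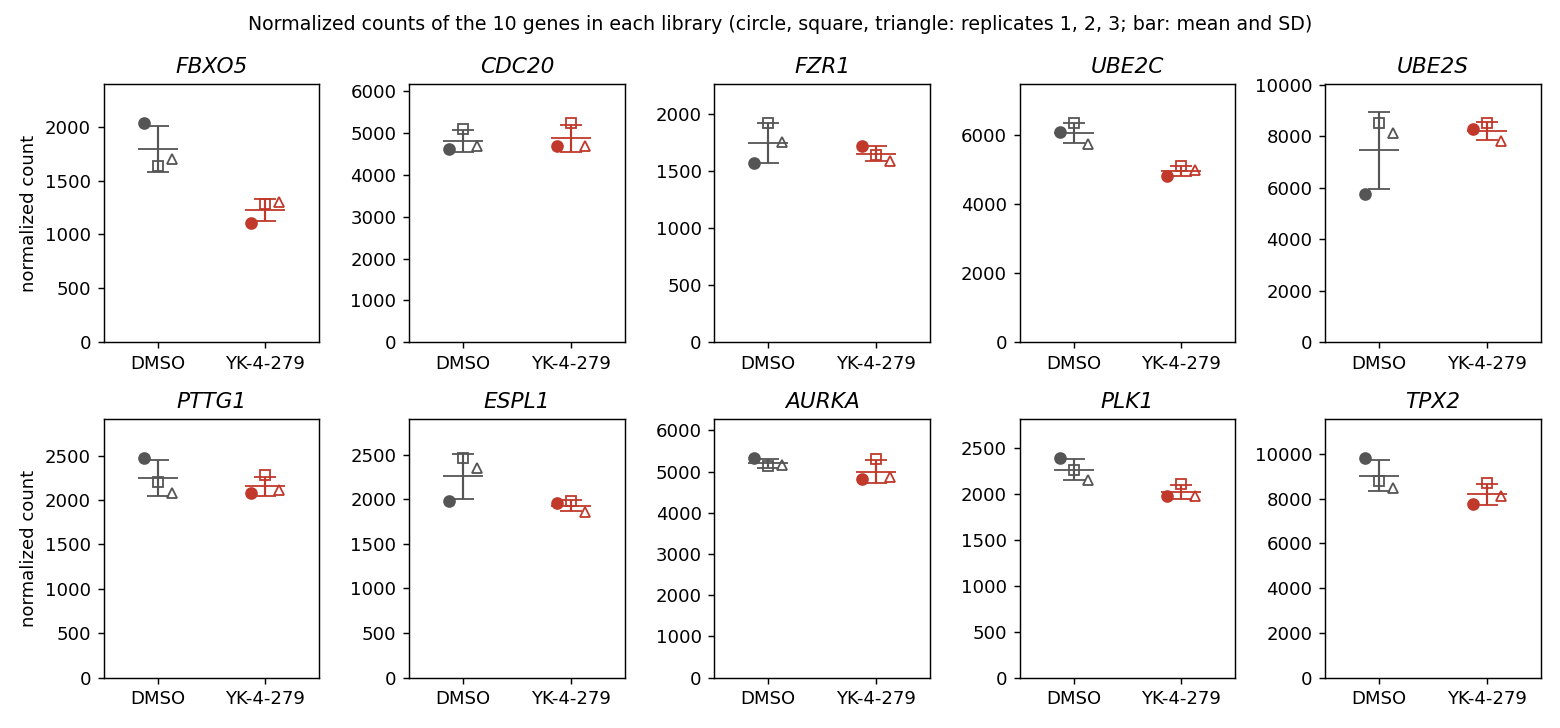
Normalized counts (vertical axes, from 0) of each gene in the 3 DMSO libraries and the 3 drug-treated libraries (marked with the compound's name), with a circle, square and triangle for replicates 1, 2 and 3 and bars for the mean and SD. The groups are apart for FBXO5, UBE2C and PLK1 and overlap for the other 7 genes, and the circle of UBE2S in DMSO lies far below its group mates.

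In drug-treated cells 2 of the 10 genes fell, the APC/C inhibitor FBXO5 and the ubiquitin-conjugating enzyme UBE2C, and none rose. FBXO5 lost about 31.4% of its transcript level and UBE2C 18.1%, while the means of CDC20 and PTTG1 differed by less than the SD of either group. The test was limma, run on log2(normalized count + 1) with Benjamini-Hochberg adjustment over all genes tested, and a gene was called at an adjusted p-value under 0.05. By this rule 2.15% of all genes tested were called lower (299 genes) and 3.41% were called in either direction. With quantile normalization, 145 genes were called lower and 132 higher, against 299 and 176. Lower calls were outnumbered with eBayes without trend (3 lower and 30 higher) and without drug-treated replicate 1 (4 and 15), 2 (9 and 16) or 3 (18 and 28). The 10 genes had 8 lower and 2 higher values, where 52.0% of all genes tested were lower. Their median log2 fold change was -0.11, against -0.01 over all genes tested. No member was called higher by limma, edgeR or DESeq2, and at an unadjusted p-value under 0.05 limma had 0 higher and 4 lower, where 18.7% of all genes tested were under it in either direction. The 3 genes whose drug-treated libraries all lay below all DMSO libraries were FBXO5, UBE2C and PLK1, where 15.1% of all genes tested had such a pattern and 10.9% had the opposite one. In bulk RNA, fewer cells in the phases of the cycle that express a gene and less of its transcript in each such cell cannot be told apart.

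Of the inhibitor and the activators of the APC/C, only the inhibitor was called changed. FBXO5 (chromosome 6, 152970519 to 152983579 on hg38, minus strand) had 2033, 1637 and 1704 normalized counts in the DMSO libraries, in replicate order, against 1110, 1279 and 1298 after treatment. Its DMSO replicate 1 was the highest of the 6, and the highest drug-treated library remained below the lowest DMSO library. Its change was -0.54 on the log2 scale (95% confidence interval -0.73 to -0.35, limma adjusted p = 0.0074), and only 0.74% of the genes tested had a more negative one. Without DMSO replicate 1 it was -0.45 (limma adjusted p = 3.27e-08), whereas leaving out drug-treated replicate 1 or 2 gave -0.47 or -0.57, not called (limma adjusted p = 0.0896 and 0.0725).

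CDC20, the mitotic activator (chromosome 1, 43358981 to 43363203), measured 4629, 5106 and 4694 normalized counts in DMSO and 4685, 5240 and 4696 in drug. Replicates 1 and 3 were nearly equal between the groups and replicate 2 was highest in both. Its log2 fold change was 0.02, with a 95% confidence interval of -0.12 to 0.16 that contains changes in either direction (limma adjusted p = 0.91), and it fell below 0, to -0.01, without DMSO replicate 1. FZR1, the activator of late mitosis and G1 (chromosome 19, 3506311 to 3538334), measured 1570, 1925 and 1758 normalized counts in DMSO and 1727, 1646 and 1593 in drug. The drug-treated libraries fell within the DMSO range, whose lowest value was DMSO replicate 1, for a log2 difference of -0.08 (95% confidence interval -0.24 to 0.09, limma adjusted p = 0.63). Without DMSO replicate 1 the change of FZR1 was -0.15 and was called (limma adjusted p = 0.0326), and without DMSO replicate 2, the highest library, it was -0.0059 (limma adjusted p = 0.97).

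Of the enzymes that build the ubiquitin chain, UBE2C was called lower and UBE2S was not called. UBE2C, which starts chains (chromosome 20, 45812576 to 45816957), measured 6086, 6337 and 5743 normalized counts in DMSO and 4816, 5099 and 4967 in drug. The groups were apart by more than the spread within either, and DMSO replicate 1 lay in the middle of its group. UBE2C changed by -0.29 on the log2 scale (95% confidence interval -0.41 to -0.16, limma adjusted p = 0.0171). It went from -0.32 to -0.25 with any 1 library left out, and the call was lost without drug-treated replicate 1, 2 or 3 (limma adjusted p = 0.157, 0.0946 and 0.113). UBE2S, which extends chains (chromosome 19, 55399745 to 55407788, minus strand), measured 5755, 8518 and 8125 normalized counts in DMSO and 8302, 8520 and 7840 in drug. A single library set its apparent rise: DMSO replicate 1 differed by -30.8% from the mean of the other DMSO libraries, which overlapped with the drug-treated ones. For UBE2S the log2 difference was 0.16 (limma adjusted p = 0.47, 95% confidence interval -0.08 to 0.40), and -0.02 without that library (limma adjusted p = 0.84).

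Securin and separase, which release sister chromatids, were not called in the comparison of all 6 libraries. PTTG1 (chromosome 5, 160421855 to 160428739) measured 2468, 2198 and 2081 normalized counts in DMSO and 2080, 2280 and 2108 in drug. Apart from DMSO replicate 1, the highest, the libraries of both groups were interleaved. The log2 difference of PTTG1 was -0.06 (95% confidence interval -0.21 to 0.10, limma adjusted p = 0.70), or 0.01 without DMSO replicate 1. ESPL1, the protease (chromosome 12, 53268299 to 53293638), measured 1977, 2458 and 2348 normalized counts in DMSO and 1956, 1979 and 1855 in drug. DMSO replicate 1 was as low as the drug-treated libraries, while DMSO replicates 2 and 3 were above all of them. For ESPL1 the log2 difference was -0.22 (limma adjusted p = 0.144, 95% confidence interval -0.39 to -0.05), and without DMSO replicate 1 it was -0.32 and was called (limma adjusted p = 1.34e-06).

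Neither kinase nor TPX2 was called. AURKA (chromosome 20, 56369389 to 56392337, minus strand) measured 5317, 5124 and 5155 normalized counts in DMSO and 4825, 5316 and 4857 in drug. Drug-treated replicate 2 matched the highest DMSO library, for a log2 difference of -0.06 (95% confidence interval -0.18 to 0.07, limma adjusted p = 0.63). PLK1 (chromosome 16, 23677656 to 23690367) measured 2389, 2261 and 2155 normalized counts in DMSO and 1985, 2107 and 1977 in drug. The groups did not overlap, but the gap between them was narrow, and the log2 fold change of -0.16 (95% confidence interval -0.30 to -0.03) did not pass the threshold (limma adjusted p = 0.182). TPX2 (chromosome 20, 31739271 to 31801805) measured 9793, 8803 and 8453 normalized counts in DMSO and 7768, 8691 and 8132 in drug. Only drug-treated replicate 2 reached into the DMSO range, for a log2 difference of -0.14 (95% confidence interval -0.28 to 0.01, limma adjusted p = 0.29). Drug-treated replicate 2 was the highest drug-treated library for 8 of the 10 genes, all but FBXO5 and FZR1. With it left out, TPX2 stood at -0.18 and PLK1 at -0.19, and without DMSO replicate 1 they stood at -0.08 and -0.13, not called in either fit. AURKA went from -0.10 without drug-treated replicate 2 to -0.03 without drug-treated replicate 1, and was not called in any fit that left out 1 library.

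**Figure D2:**
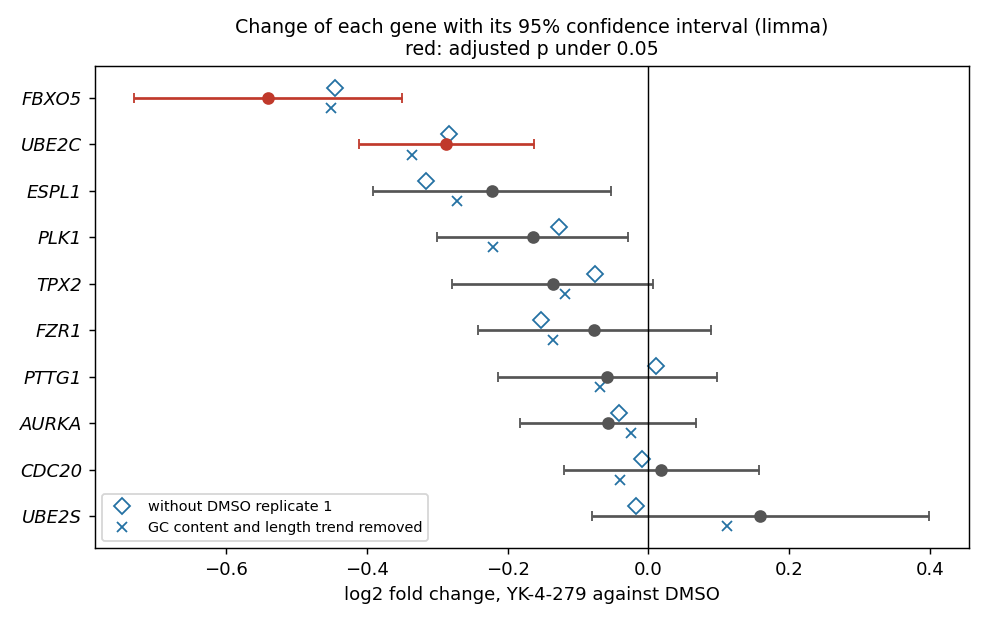
Log2 fold change of each gene, drug against DMSO (horizontal axis), with its 95% confidence interval over all 6 libraries; red marks an adjusted p-value under 0.05. Diamonds, without DMSO replicate 1, and crosses, after adjustment for GC content and length, show FBXO5 at -0.45 in both and UBE2S at -0.02 and 0.11.

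The deviation of DMSO replicate 1 varied with the base composition of the transcripts. Among the 10 genes, its log2 level minus the mean of DMSO replicates 2 and 3 went from 0.28 in FBXO5, whose canonical transcript has the lowest GC content at 38.1%, to -0.53 in UBE2S, at 55.7%. FZR1, at 63.8% the highest, stood at -0.23 and ESPL1, at 57.0%, at -0.28, while PLK1, at 57.1%, stood at 0.11. Pearson's r between this deviation and GC content was -0.70 over the 10 genes and -0.51 over the 13705 tested genes with a known GC content. The other 5 libraries, each set against its 2 group mates, had r from -0.74 to 0.87 over the 10 genes and from -0.09 to 0.40 over the 13705, so DMSO replicate 1 had the strongest relation over all genes but not over the 10. These genes share the same libraries and are not independent. After a smooth fit to GC content and transcript length was subtracted in each library, an alternative chosen after seeing the data, 4 of the 10 genes were called lower: FBXO5 at -0.45, UBE2C at -0.34, ESPL1 at -0.27 and PLK1 at -0.22 (limma adjusted p = 5.43e-05, 2.46e-04, 0.0019 and 0.0283). In that fit 7.81% of all genes were called lower. Without DMSO replicate 1, 4 genes were called lower as well, FBXO5, UBE2C, ESPL1 and FZR1, where 8.45% of all genes were.

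**Figure D3:**
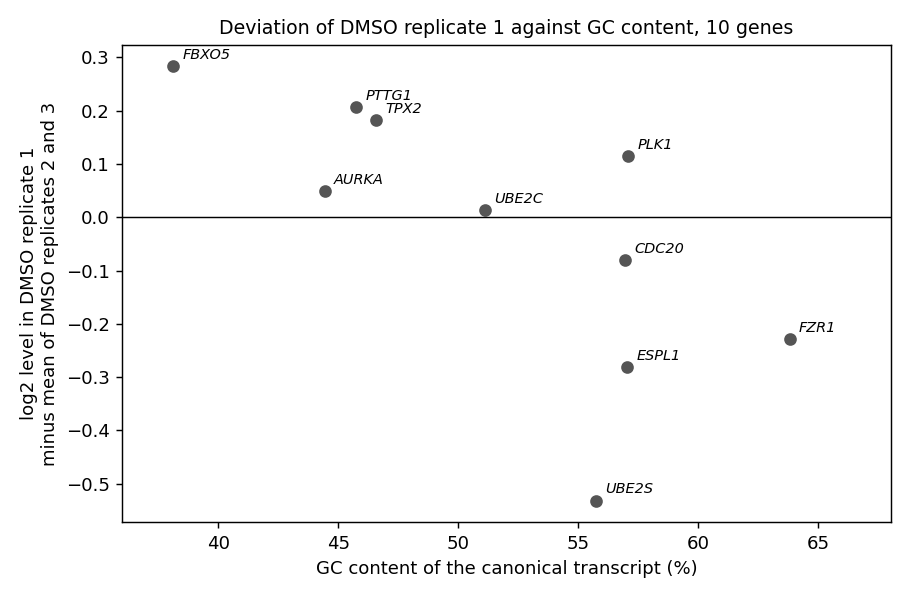
Log2 level in DMSO replicate 1 minus the mean of DMSO replicates 2 and 3 (vertical axis) against the GC content of the canonical transcript in percent (horizontal axis), 1 point for each of the 10 genes. FBXO5 sits at the upper left (38.1%, 0.28) and UBE2S at the bottom (55.7%, -0.53).

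To ask whether partners changed unequally, their log2 ratio was taken within each library, where the scaling between libraries cancels. There were 7 pairs, compared by exact two-sided permutation tests, and with 3 libraries against 3 no p-value can go below 0.1. The ratio of FBXO5 to CDC20 was -1.19, -1.64 and -1.46 with DMSO and -2.08, -2.03 and -1.85 with the drug, a difference of -0.56. The inhibitor was thus lower against its mitotic target in every drug-treated library than in any DMSO library (exact p = 0.1, adjusted p = 0.175). The ratio of FBXO5 to FZR1 was 0.37, -0.23 and -0.05 with DMSO and -0.64, -0.36 and -0.30 with the drug, a difference of -0.46 (exact permutation p = 0.1, adjusted p = 0.175) that was -0.29 without DMSO replicate 1. The ratio of UBE2C to UBE2S was 0.08, -0.43 and -0.50 with DMSO and -0.79, -0.74 and -0.66 with the drug, a difference of -0.45 (exact permutation p = 0.1, adjusted p = 0.175) and of -0.26 without DMSO replicate 1. The initiating enzyme was lower against the extending one in all drug-treated libraries, with DMSO replicate 1 widening the gap. The ratio of AURKA to PLK1 was higher by 0.11 with the drug, without overlap (exact permutation p = 0.1, adjusted p = 0.175). The pairs of CDC20 and FZR1, of PTTG1 and ESPL1 and of TPX2 and AURKA overlapped between the groups, with differences of 0.10, 0.16 and -0.08 (exact permutation adjusted p = 0.35, 0.4 and 0.28). With 1 library left out, the first went from 0.04 (without drug-treated replicate 2) to 0.15 (without drug-treated replicate 1), the second from 0.08 (without DMSO replicate 3) to 0.33 (without DMSO replicate 1) and the third from -0.12 (without DMSO replicate 3) to -0.03 (without DMSO replicate 1). No pair passed the threshold, which this design does not allow.

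**Figure D4:**
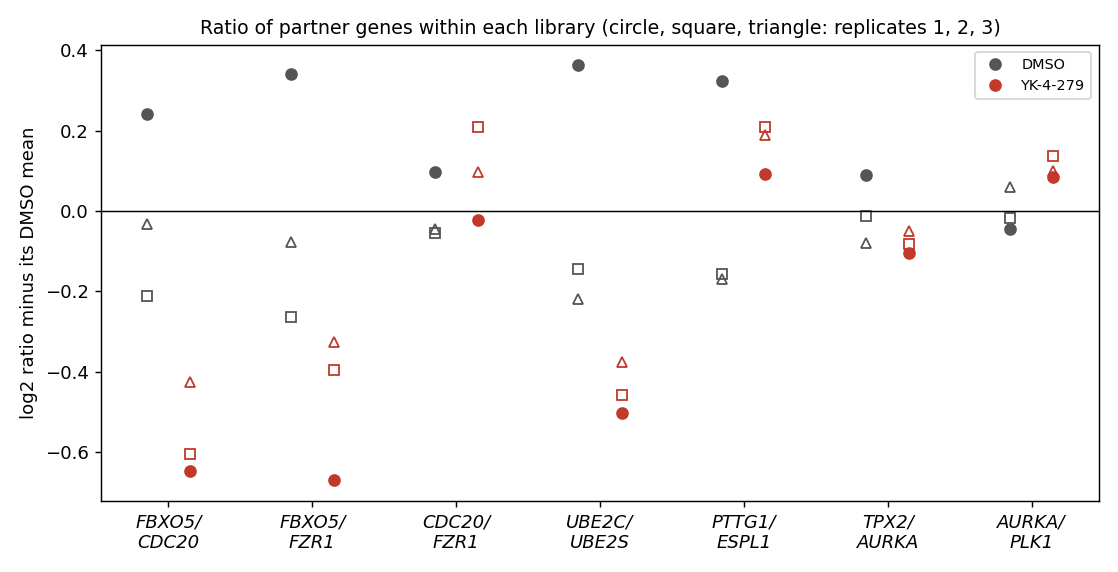
Log2 ratio of each pair of genes within a library, minus its mean in the DMSO libraries (vertical axis), with a circle, square and triangle for replicates 1, 2 and 3. Drug-treated libraries lie below all DMSO libraries for FBXO5 against CDC20, FBXO5 against FZR1 and UBE2C against UBE2S, and above them for AURKA against PLK1.

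Levels of the 10 genes spanned 23.0-fold in the DMSO libraries when normalized counts were divided by the length of the canonical transcript. UBE2C was highest, at 7793 ± 384 normalized counts per kb (SD, n = 3), 2.48 times the next. PTTG1 (3145 ± 277), UBE2S (2917 ± 584), CDC20 (2917 ± 157), TPX2 (2596 ± 200) and AURKA (2557 ± 51.0 normalized counts per kb) followed, each with a mean ± SD range that overlapped that of its neighbor. PLK1 (1050 ± 54.3) and FBXO5 (872 ± 103 normalized counts per kb) came lower and were apart from their neighbors. The protease ESPL1 (342 ± 38.1) and FZR1 (338 ± 34.3 normalized counts per kb) were lowest and did not differ beyond their spread. In drug-treated cells UBE2C stood at 6384 ± 182 and FBXO5 at 598 ± 50.4 normalized counts per kb (SD, n = 3). These values take 1 transcript for each gene, so a shorter form in use would raise the level of its gene.

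Around the group, 93 other genes of the pathway were tested, from lists of APC/C subunits, the mitotic checkpoint, APC/C substrates, partners of the Aurora and Polo kinases, cohesin and regulators of G2 and mitotic genes, and relatives of the members. Of these, 76 were lower and 17 higher, where 52.0% of all genes tested were lower. The main limma fit called 19 lower and 1 higher, where 2.15% of all genes were called lower and 3.41% in either direction. The median log2 fold change of the 93 genes was -0.18, against -0.01 for all genes tested. Without DMSO replicate 1, 39 were called lower, where 8.45% of all genes were, and 1 higher. Without drug-treated replicate 1, 2 or 3, 1, 2 or 3 of the pathway genes were called. In the same fits 19 of 13901, 25 of 13927 and 46 of 13898 genes tested were called.

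The 14 subunits of the APC/C itself, its catalytic and scaffold proteins, had no called gene (0 by limma, edgeR and DESeq2, and 2 at an unadjusted p-value under 0.05 in limma, against 18.7% of all genes), with 10 lower, 4 higher and a median of -0.09. Without DMSO replicate 1, 2 subunits were called lower (8.45% of all genes) and the median was -0.05, and 3 were called lower after adjustment for GC content and length (7.81% of all genes). CDC27, the subunit with the highest mean, averaged 3959 ± 426 normalized counts in DMSO and 3357 ± 157 in drug (SD, n = 3), or -0.23 on the log2 scale (limma adjusted p = 0.107), and -0.15 without DMSO replicate 1 (limma adjusted p = 0.0158). The mitotic checkpoint holds CDC20 inactive until chromosomes are attached. Of its 11 tested genes, 1 was called lower by limma and DESeq2 and 0 by edgeR, where limma called 2.15% of all genes lower. That gene was BUB3, which brings checkpoint kinases to kinetochores, at 3430 ± 242 and 2870 ± 98.5 normalized counts and a log2 fold change of -0.26 (limma adjusted p = 0.0466). MAD2L1, which binds CDC20 directly and had the highest mean, was at -0.21 (limma adjusted p = 0.128), or -0.15 and called without DMSO replicate 1 (limma adjusted p = 0.0203). The checkpoint list had 9 lower and 2 higher genes and a median of -0.21, or -0.12 without DMSO replicate 1, where 4 genes and 8.45% of all genes were called lower. MAD1L1, a partner of MAD2L1, was at 0.68 on few counts (11.3 to 16.7 normalized counts in DMSO, 21.7 to 26.6 in drug, limma adjusted p = 0.233).

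Of 19 APC/C substrates, 18 were lower and 1 higher, with a median of -0.26, and 7 were called lower and none called higher (2.15% of all genes were called lower). RRM2, a subunit of ribonucleotide reductase, was at -0.52 (limma adjusted p = 3.74e-04), CDCA3, a trigger of mitotic entry, at -0.42 (limma adjusted p = 0.0074) and ANLN, an actin-binding protein of cytokinesis, at -0.35 (limma adjusted p = 0.0373). The other 4 that fell were CCNA2, CDC6, CDCA5 and AURKB. SKP2, the F-box protein with the highest mean of this list, at 22630 ± 1504 and 19994 ± 360 normalized counts (SD, n = 3), had a log2 fold change of -0.18 (limma adjusted p = 0.121), or -0.12 and called without DMSO replicate 1 (limma adjusted p = 0.0333). No substrate was called higher by edgeR or DESeq2 either, and none was higher at an unadjusted p-value under 0.05 in limma.

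Of 20 partners of the Aurora and Polo kinases, 18 were lower and 2 higher, with a median of -0.20. Of them 7 were called lower, where 2.15% of all genes were, although AURKA, PLK1 and TPX2 themselves were not called. AURKB is counted both here and among the substrates. CDK1, the kinase of mitotic entry, measured 3496, 2996 and 3189 normalized counts in DMSO and 2141, 2382 and 2531 in drug. Every drug-treated library was lower than every DMSO library, and its log2 fold change was -0.46 (limma adjusted p = 0.0074). ARPP19 and MASTL, which act together to restrain the phosphatase that opposes CDK1, were at -0.36 and -0.34 (limma adjusted p = 0.0082 and 0.0213). BIRC5 (survivin), the member with the highest mean, was at -0.14 (limma adjusted p = 0.253), or -0.18 and called without DMSO replicate 1 (limma adjusted p = 0.0016), and the others that fell were INCENP, AURKB, FAM83D and WEE1.

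Of 16 genes of cohesin and its regulators, 12 were lower and 4 higher, and 3 were called lower, where 2.15% of all genes were. ESCO2, which acetylates cohesin in S phase, averaged 857 ± 89.3 normalized counts in DMSO and 566 ± 10.9 in drug (SD, n = 3), or -0.59 on the log2 scale (limma adjusted p = 0.0036). CDCA5 (sororin) and SMC1A were at -0.32 and -0.29 (limma adjusted p = 0.0153 and 0.0152), and STAG2, with the highest mean, at -0.27 (limma adjusted p = 0.0778), or -0.16 and called without DMSO replicate 1 (limma adjusted p = 0.0028). The median of the cohesin list was -0.12 over all libraries and -0.03 without DMSO replicate 1. Of 14 regulators of the G2 and mitotic genes, 12 were lower and 2 higher, and 3 were called lower, with a median of -0.18, or -0.11 without DMSO replicate 1. MYBL2 (B-MYB), the most abundant of them, averaged 10343 ± 531 normalized counts in DMSO and 8287 ± 231 in drug (SD, n = 3), or -0.32 on the log2 scale (limma adjusted p = 0.0106). RBBP4, a MuvB subunit, and TFDP1, the partner of E2F factors, were at -0.32 and -0.30 (limma adjusted p = 0.0129 and 0.0118). The fits without DMSO replicate 1 called 13 substrates, 12 partners, 5 cohesin genes and 5 regulators lower, where 8.45% of all genes were.

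**Figure D5:**
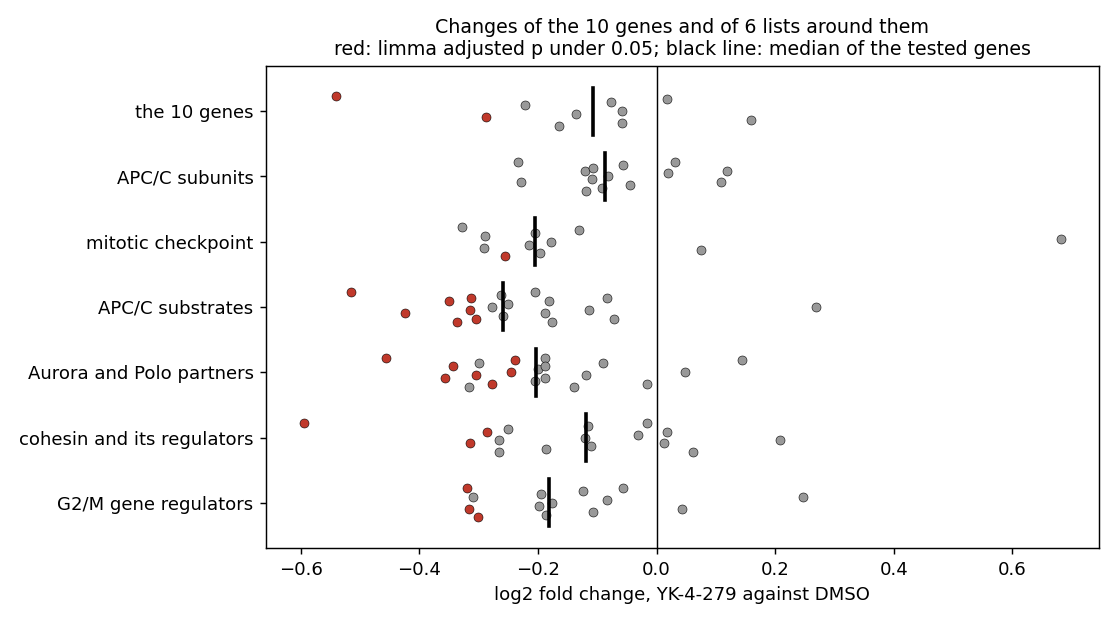
Log2 fold changes, drug against DMSO (horizontal axis), of the 10 genes and of the tested genes of 6 lists, 1 point for each gene, with red for an adjusted p-value under 0.05 and a black line for the median. The medians go from -0.09 for APC/C subunits to -0.26 for APC/C substrates, and each red point is on the lower side; a gene in more than 1 list is drawn in each.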

How the data were processed

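Rh30 cells were profiled by directional mRNA sequencing, with 3 DMSO and 3 drug-treated libraries grouped by their titles. The authors trimmed reads with BBDuk and aligned and counted them per gene on hg38 with STAR 2.7.9a; DESeq2 1.44.0 is in the submitters' processing notes, and the gene annotation is not given in the sources used here. The deposited signal is a normalized count, that is, reads over the library's own size factor. Each value was a whole multiple (within 0.01 of a read) of 1 step per library for 100% of values, so the reads were recovered. A row without a gene name, with at most 6 reads in a library, was left out.

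limma 3.58.1 (lmFit, eBayes with trend, in R 4.3.3) was run on log2(normalized count + 1), where fold changes of low genes are understated, for genes with a mean of at least 10, two-sided, over all genes, and partner ratios by exact permutation. Alternatives were a replicate block, quantile and TMM scaling, other pseudocounts and filters, eBayes with no trend, each library left out in turn, edgeR 4.0.16, DESeq2 1.42.0 and removal of loess trends on GC content and length (98.4% of genes tested had both, from GENCODE). The code was tested on simulated data. Named genes were the members and, in each list, the gene with the highest mean and up to 3 called genes, averaging 100 normalized counts or more and with separate groups, that changed most; CCNA2, CDC6, INCENP, FAM83D, WEE1, CCNB1, MAD1L1, PLK3 and PLK4 were named after their values were seen. Members and lists were chosen with earlier results of these data known. Gene positions are from GENCODE and promoters from RefSeq, both on GRCh38. Reads shared with near-identical copies make counts uncertain. A gene that the rule on likeness would name and a marker of another cell type are not reported here.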

Additional observations from a re-analysis of the deposited data

How the results depend on the processing

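Of the 10 genes, FBXO5 kept its direction under 17 alternatives, from -0.60 to -0.45 on the log2 scale, and its call under 14, and UBE2C kept its direction under 17, from -0.34 to -0.23, and its call under 12. Members called lower numbered 2 with all libraries, 0 by eBayes without trend and 4 after GC content and length adjustment, and from 0 (without drug-treated replicate 1 or 2) to 4 (without DMSO replicate 1) across fits that left out 1 library. Genes called over the whole table numbered 475, or 277 by quantile normalization, 33 by eBayes without trend, 1655 after GC content and length adjustment and from 19 (without drug-treated replicate 1) to 1827 (without DMSO replicate 1). DMSO replicate 3 left out gave 242, and edgeR and DESeq2 called 465 and 629. Pathway genes called numbered 20, or 1 by eBayes without trend, 40 after GC content and length adjustment and from 1 to 40 with 1 library left out, the extremes again without drug-treated replicate 1 and DMSO replicate 1. Drug-treated replicates 2 and 3 left out gave 2 and 3 pathway genes and 25 and 46 genes in all. CDC20 was at -0.041 after GC content and length adjustment (chosen after seeing the data), and with 1 library left out it ranged from -0.035 (without drug-treated replicate 2) to 0.062, PTTG1 from -0.113 to 0.010 and UBE2S from -0.018 to 0.265; the sign of PTTG1 and of UBE2S turned without DMSO replicate 1, as did that of CDC20. The ratio differences kept their direction under the 7 alternatives run for them, with FBXO5 to CDC20 from -0.66 to -0.44. The replicate numbers did not pair the samples (samples with 1 number had deviations that correlated at -0.10, -0.03 and -0.03), and with a replicate block 1 member, FBXO5, 11 pathway genes and 180 genes in all were called. The causes were not tested.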

Other observations

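Of 5 relatives of the 10 genes that were tested, 1 was called lower and 1 higher. Of all genes tested, 2.15% were called lower and 3.41% in either direction. The relative called lower, AURKB, is also counted among the substrates and the kinase partners. AURKB, the Aurora kinase of the chromosomal passenger complex, had 1692, 1911 and 1841 normalized counts with DMSO and 1430, 1434 and 1540 with the drug, a log2 fold change of -0.30 (limma adjusted p = 0.0283). AURKA stood at -0.06, and the difference between the relatives was not tested. PLK2, a Polo-like kinase also known as a p53 target, had 1033, 943 and 981 normalized counts with DMSO and 1285, 1239 and 1300 with the drug, so that each drug-treated library was above each DMSO library (log2 fold change 0.37, limma adjusted p = 0.0109). PLK1 stood at -0.16 and PLK4, the kinase of centriole duplication, at -0.30 (limma adjusted p = 0.0728), or -0.20 and called without DMSO replicate 1 (limma adjusted p = 0.0068). PLK3, a stress-responsive relative, was at 0.26 (limma adjusted p = 0.204), with 202 to 204 normalized counts in DMSO and 226 to 265 in drug. FBXO43 (EMI2), the meiotic relative of FBXO5, AURKC and CDC20B had means too low to test.

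Among processed copies, the CDC20 pseudogene CDC20P1, which passed the filter on low values only through its level in drug-treated cells, had 6.30, 6.99 and 7.51 normalized counts with DMSO and 13.71, 13.04 and 13.01 with the drug. CDC20 itself was at 0.02. The PTTG1 copies PTTG2 and PTTG3P were at 0 in all 6 libraries, and UBE2CP2 had a mean of 1.40 normalized counts with DMSO. CCNB1, a cyclin degraded through the APC/C with CDC20, was at -0.08 (limma adjusted p = 0.607), or 0.01 without DMSO replicate 1, where CCNA2, the cyclin of S phase and G2, was at -0.34 (limma adjusted p = 0.0122); the difference was not tested.

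Over the 6 libraries, genes outside the group whose log2 values were among the most like the mean of the 10 standardized members were PDCL, IGFBPL1, LAMA4 and PTMA, of 10689 genes with a mean of at least 100 (Pearson's r from 0.985 to 0.995, a description of 6 libraries that share their scaling). None of these 4 genes was called by limma (adjusted p from 0.168 to 0.581).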
